A study of Homo sapiens with 12 samples.

Results

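The RAS and RAF genes with the SOS exchange factors were described in HT1080 cells, an established human fibrosarcoma line that carries a mutant NRAS gene. The 9 members were NRAS, HRAS, MRAS, RRAS, RRAS2, ARAF, BRAF, SOS1 and SOS2, found by symbol among the 56227 entries of the deposited table. They were chosen by name, with NRAS as the knockdown target, and with earlier results of these data known. All 9 were among the 14722 genes tested. There were 12 libraries in 4 groups of 3. Cells received the siRNA siNC, a control, or siQ61K, named for the Q61K mutant form of NRAS, and each siRNA was combined with either DMSO or poly(dA:dT), a DNA polymer that cytosolic sensors detect. All groups are the same line and all received an siRNA, so no group is without one. The study asked how knockdown of mutant NRAS changed the interferon-alpha response.

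RAS proteins are small GTPases that signal when bound to GTP. SOS proteins load GTP onto RAS when growth factor receptors recruit them, and GTP-bound RAS brings RAF kinases to the membrane, from where the signal passes through MEK to ERK. The mutant form of NRAS hydrolyses GTP slowly, so that the protein stays active. NRAS and HRAS are classical RAS proteins, and MRAS, RRAS (R-Ras) and RRAS2 (TC21) are close relatives with partly shared effectors.

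Abundances are TPM, scaled for transcript length and for the total of each library, which allows levels of different genes to be compared. TPM does not keep the number of reads, so library depth is unknown. Replicate libraries correlated at 0.966 to 0.984 across genes. Nothing in the labels says that replicates were separate cultures, so p-values measure the spread between these libraries only. Of 7 mesenchymal markers, 6 were at 1 TPM or more in every library (VIM at 4728 to 7742 TPM), and THY1 reached at most 0.126 TPM. All 5 blood markers and the 3 endothelial markers matched stayed under 1 TPM, as did 4 of 5 epithelial markers, with CLDN4 at up to 3.51 TPM and GRHL2 at 0.

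NRAS ranked below RRAS, RRAS2 and HRAS in every group, and above BRAF and both SOS genes. In siNC DMSO the order of mean TPM was RRAS (103.3), RRAS2 (96.3), HRAS (76.5), NRAS (53.9), ARAF (33.6), SOS2 (11.5), BRAF (10.8), SOS1 (8.62) and MRAS (0.830). Values of RRAS, RRAS2 and HRAS overlapped between neighbours in that order, as did those of SOS2, BRAF and SOS1. NRAS was apart from both HRAS and ARAF. In both siQ61K groups NRAS stood below ARAF, with no overlap, and above BRAF. In siQ61K poly(dA:dT) RRAS2 was highest at 162.5 ± 12.8 TPM (SD, n = 3), apart from RRAS at 99.2 ± 16.6 TPM.

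**Figure D1:**
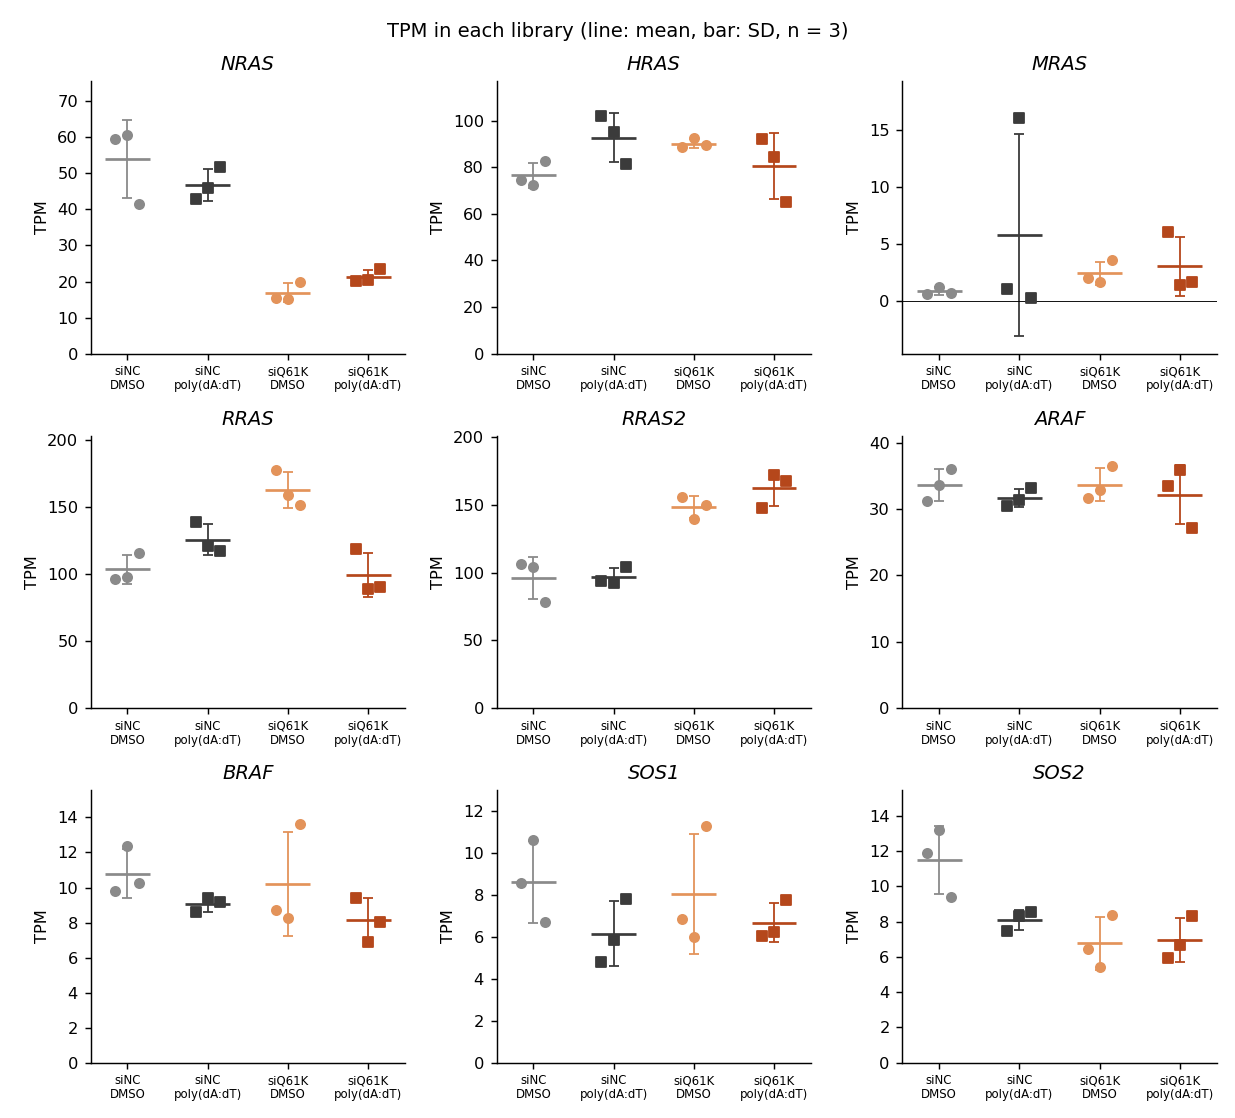
TPM of each member in the 12 libraries by group, on linear axes that include 0. Points are libraries, horizontal lines are group means and bars are SD (n = 3). NRAS is lower and RRAS2 higher in all 6 siQ61K libraries than in the siNC libraries of the same treatment, and 1 siNC poly(dA:dT) library has MRAS at 16.0 TPM.

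NRAS, the target, was reduced but not lost. In DMSO it measured 59.6, 60.6 and 41.4 TPM with siNC and 15.5, 15.2 and 19.9 TPM with siQ61K. The siQ61K libraries therefore held 28.8%, 28.2% and 36.9% of the siNC mean. It measured 43.0, 45.9 and 51.7 TPM in siNC libraries given poly(dA:dT) and 20.1, 20.3 and 23.5 TPM in the matching siQ61K libraries, or 42.8%, 43.3% and 50.1% of that siNC mean. No siQ61K value reached the lowest siNC value in either treatment. Log2 fold changes, here on the log2(TPM + 1) scale of a limma fit to all genes, were -1.61 (SE 0.16, adjusted p = 2.54e-05) and -1.10 (SE 0.16, adjusted p = 0.000426). Once GC content and transcript length were corrected for, as described below, they were -1.29 (adjusted p = 1.32e-06) and -1.13 (adjusted p = 2.88e-06). The smaller reduction with poly(dA:dT) was not called as a difference between treatments (0.51, SE 0.23, adjusted p = 0.137). It was called with median-of-ratios scaling (0.60, adjusted p = 0.0487), with quantile normalization (0.63, adjusted p = 0.0399) and without siNC DMSO replicate 3 (0.68, adjusted p = 0.0307), and was 0.17 after the correction (adjusted p = 0.469). TPM does not separate the mutant from the normal allele, and siQ61K was the only siRNA against NRAS, so that loss of NRAS and other effects of this siRNA cannot be told apart.

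Knockdown without poly(dA:dT) was called for 4 of the 9 members, NRAS and SOS2 lower, RRAS and RRAS2 higher. Among all genes tested 31.5% were called in that comparison, so the members' share is not far from the background. Values did not overlap between groups for 6 members, against 45.8% of all genes.

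GC content moved with this comparison. Across all genes, fold changes rose with the GC content of the longest transcript (Spearman 0.505, genes not being independent replicates). GC content was 35.9% for RRAS2, 38.4% for NRAS and 40.3% for SOS2, with SOS1 and BRAF between these. It was 58.9% for ARAF, 63.5% for RRAS and 65.8% for HRAS, with MRAS at 50%. A second set of values was therefore made by removing, library by library, a smooth trend in GC content and transcript length, and is given below for each gene named where it ends or adds a call or moves a called value by over 1.5 times, and for some other values. After that correction 6 members were called, against 27.6% of all genes.

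RRAS2, the relative known as TC21, rose against that trend. In DMSO it measured 106.4, 104.2 and 78.2 TPM with siNC and 156.2, 139.9 and 149.8 TPM with siQ61K. All 3 siQ61K libraries were above all siNC libraries. The log2 difference between groups was 0.63 (SE 0.12, adjusted p = 0.00212), while the 496 genes within 1 percentage point of its GC content had a median of -0.36. After the correction it was 1.07 (adjusted p = 1.85e-06). RRAS2 measured 93.7, 92.7 and 104.3 TPM in siNC libraries given poly(dA:dT) and 147.9, 172.1 and 167.5 TPM in the matching siQ61K libraries, again with no overlap. The log2 difference between groups was 0.74 (SE 0.12, adjusted p = 0.00106), and 0.63 after the correction (adjusted p = 8.23e-05). RRAS2 kept its call in both treatments whichever library was left out.

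RRAS, which encodes R-Ras, rose without poly(dA:dT), as genes of like GC content did on the whole. It measured 96.5, 97.7 and 115.7 TPM with siNC and 177.1, 159.1 and 151.2 TPM with siQ61K in DMSO, with no overlap. The log2 difference between groups was 0.65 (SE 0.13, adjusted p = 0.00245), beside a median of 0.52 for the 492 genes of like GC content. After the correction it was 0.24 (adjusted p = 0.024). In libraries given poly(dA:dT) it measured 138.6, 120.8 and 117.1 TPM for siNC and 118.3, 88.7 and 90.4 TPM for siQ61K, which overlapped. The log2 fold change of -0.35 (SE 0.13) was not called (adjusted p = 0.0726), but was called at -0.48 with siQ61K poly(dA:dT) replicate 1 left out (adjusted p = 0.0106), and was -0.12 after the correction (adjusted p = 0.203).

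HRAS, the other classical RAS gene measured here, was not called in either treatment. In DMSO it measured 74.6, 72.3 and 82.6 TPM with siNC and 88.6, 92.4 and 89.4 TPM with siQ61K. These groups did not overlap, yet the log2 fold change of 0.24 (SE 0.13) had an adjusted p = 0.191, and genes of like GC content had a median of 0.56. After the correction it was -0.23 and called lower (adjusted p = 0.0463), so no direction is given for HRAS. It measured 101.9, 95.3 and 81.2 TPM in siNC libraries given poly(dA:dT) and 92.1, 84.6 and 65.0 TPM in the matching siQ61K libraries (log2 fold change -0.21, adjusted p = 0.278).

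MRAS, whose protein forms a phosphatase complex with SHOC2 that acts on RAF, was scarce and uneven. It measured 0.589, 1.20 and 0.697 TPM in siNC DMSO and 1.97, 1.63 and 3.57 TPM in siQ61K DMSO. It measured 1.04, 16.0 and 0.217 TPM in siNC libraries given poly(dA:dT) and 5.98, 1.34 and 1.66 TPM in the matching siQ61K libraries. A single library, siNC poly(dA:dT) replicate 2, held the 16.0 TPM. The siQ61K DMSO values lay above all siNC DMSO values, but the log2 fold change of 0.86 had an SE of 0.74 and was not called (adjusted p = 0.404), nor was the corrected value of 0.78 (adjusted p = 0.484). In a fit to those 2 groups alone, the same difference was called (adjusted p = 0.045).

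The NRAS to HRAS ratio within a library does not depend on how libraries are scaled to each other. NRAS TPM was 0.799, 0.838 and 0.501 times HRAS in siNC DMSO and 0.175, 0.164 and 0.223 times HRAS in siQ61K DMSO. In the presence of poly(dA:dT) it was 0.422, 0.482 and 0.637 times HRAS under siNC and 0.218, 0.240 and 0.361 times under siQ61K. All 6 siQ61K values were below the siNC values of their treatment. The log2 ratio was lower by 1.42 on average over both treatments, with an exact two-sided permutation p = 0.005 for siRNA labels exchanged within treatments. That is the smallest p this test can give, and 0.0075 when adjusted over the 3 ratios tested. The corrected difference in log2 ratio was -1.10, also with an exact permutation p = 0.005.

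**Figure D2:**
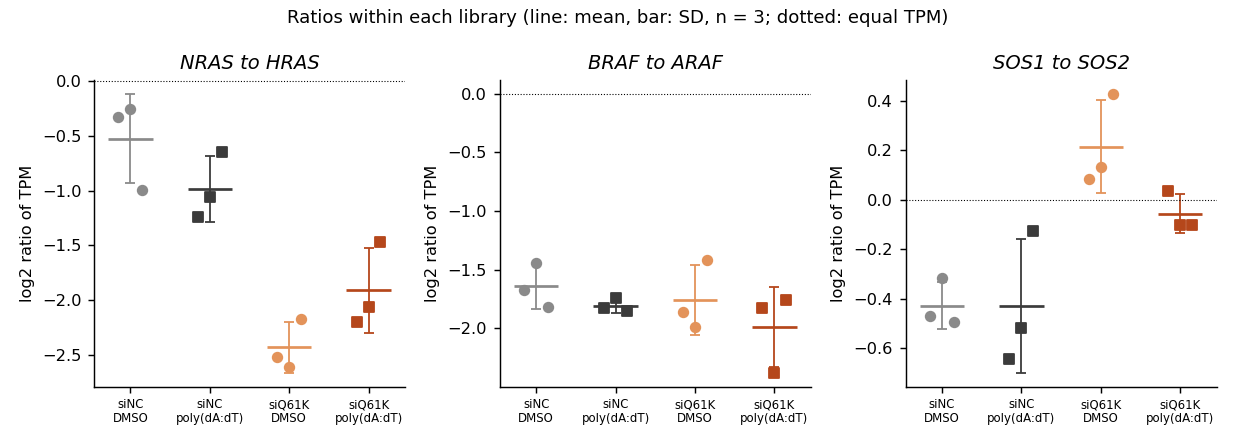
Log2 ratios of TPM of NRAS to HRAS, BRAF to ARAF and SOS1 to SOS2 within each library, by group. Points are libraries, lines are means, bars are SD (n = 3) and the dotted line marks equal TPM. The NRAS to HRAS ratio is lower and the SOS1 to SOS2 ratio higher in siQ61K libraries than in siNC libraries of the same treatment, while the BRAF to ARAF ratios overlap.

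Of the RAF kinases, ARAF was the more abundant and neither gene was called in any of the 5 comparisons on the deposited values. ARAF measured 31.2, 33.6 and 36.0 TPM in siNC DMSO and 31.6, 32.9 and 36.4 TPM in siQ61K DMSO. It measured 30.5, 31.4 and 33.2 TPM in siNC libraries given poly(dA:dT) and 33.4, 35.8 and 27.2 TPM in the matching siQ61K libraries. Its log2 fold changes were 0.0013 without poly(dA:dT) (95% confidence interval -0.26 to 0.27) and 0.012 with it (-0.25 to 0.28). Correcting for GC content and length, ARAF was called lower without poly(dA:dT) (-0.35, adjusted p = 0.0356), where genes of like GC content had a median of 0.38.

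BRAF, the RAF kinase most often mutated in cancer, measured 9.78, 12.4 and 10.2 TPM in siNC DMSO and 8.69, 8.28 and 13.6 TPM in siQ61K DMSO. It measured 8.58, 9.40 and 9.18 TPM in siNC libraries given poly(dA:dT) and 9.43, 6.88 and 8.06 TPM in the matching siQ61K libraries. The siRNA groups overlapped in both treatments. Log2 fold changes were -0.10 (95% confidence interval -0.50 to 0.30) and -0.15 (-0.55 to 0.26). BRAF exons overlap those of NDUFB2 on the opposite strand in GENCODE release 29, a gene at 198.7 to 332.9 TPM here, so low BRAF values are less certain if reads were assigned without strand. The pseudogenes BRAFP1, ARAFP1, ARAFP2 and ARAFP3 were listed at 0 in all libraries. BRAF TPM was 0.192 to 0.374 times ARAF in the 12 libraries. The log2 ratio differed by -0.15 between siRNAs (exact two-sided permutation p = 0.31, also 0.31 after adjustment), and by 0.064 after the GC and length correction.

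SOS2, an exchange factor that loads RAS with GTP, fell without poly(dA:dT), from 11.9, 13.2 and 9.42 TPM under siNC to 6.47, 5.44 and 8.38 TPM under siQ61K, with no overlap. The log2 difference between groups was -0.69 (SE 0.18, adjusted p = 0.0127), beside a median of -0.27 for 1184 genes of like GC content, and -0.45 after the correction (adjusted p = 0.0124). It was no longer called without siNC DMSO replicate 2 (-0.59, adjusted p = 0.0595) or without siQ61K DMSO replicate 2 (-0.57, adjusted p = 0.0563). SOS2 measured 7.45, 8.32 and 8.52 TPM in siNC libraries given poly(dA:dT) and 5.91, 6.66 and 8.32 TPM in the matching siQ61K libraries, which overlapped (log2 fold change -0.20, adjusted p = 0.472).

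SOS1, the exchange factor named in the study's title, was not called in any of the 5 comparisons. It measured 8.57, 10.6 and 6.68 TPM in siNC DMSO and 6.85, 5.96 and 11.3 TPM in siQ61K DMSO. It measured 4.77, 5.82 and 7.81 TPM in siNC libraries given poly(dA:dT) and 6.05, 6.20 and 7.75 TPM in the matching siQ61K libraries. Groups overlapped in both treatments. The 95% confidence interval of the log2 fold change ran from -0.63 to 0.40 without poly(dA:dT) and from -0.40 to 0.64 with it. The library with the highest SOS1 value, siQ61K DMSO replicate 3, was also highest for BRAF. Without it the SOS1 log2 fold change went from -0.12 to -0.36 and was not called (adjusted p = 0.249).

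Within libraries the balance of SOS1 to SOS2 moved towards SOS1 under siQ61K. SOS1 TPM was 0.721, 0.803 and 0.710 times SOS2 in siNC DMSO and 1.06, 1.09 and 1.34 times SOS2 in siQ61K DMSO. Among libraries given poly(dA:dT) it was 0.640, 0.699 and 0.916 times SOS2 under siNC and 1.02, 0.931 and 0.932 times under siQ61K. Values of the siRNA groups did not overlap in either treatment, although the gap with poly(dA:dT) was narrow. The log2 ratio was higher by 0.51 over both treatments (exact two-sided permutation p = 0.005, the smallest possible, and 0.0075 adjusted over the 3 ratios). After the GC and length correction the difference was 0.48, also with an exact permutation p = 0.005.

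**Figure D3:**
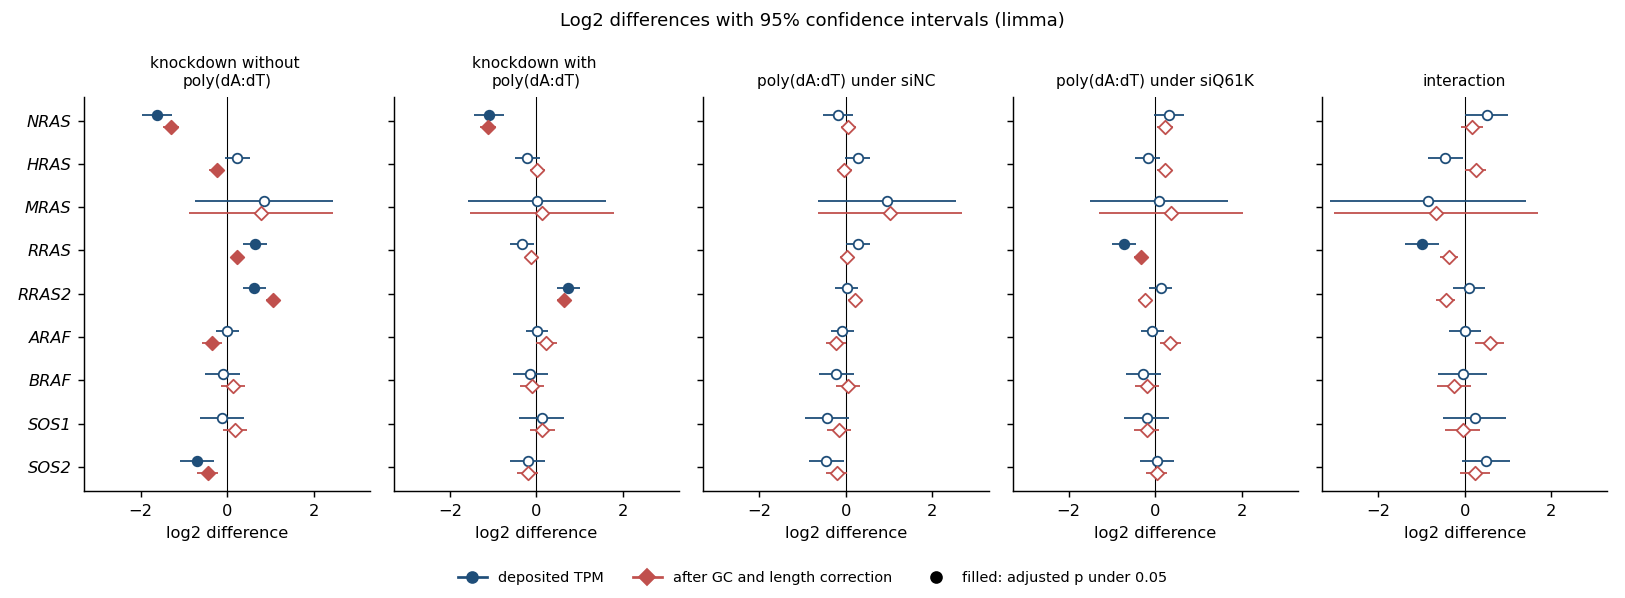
Log2 differences of each member in the 5 comparisons with 95% confidence intervals from limma, on the log2(TPM + 1) scale, for deposited TPM (circles) and after GC and length correction (diamonds). Filled symbols have an adjusted p under 0.05. NRAS and RRAS2 are filled in both knockdown comparisons with either kind of value, and the MRAS intervals are the widest in each of the 5 panels.

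With poly(dA:dT) present, knockdown was called for 2 of 9 members, NRAS lower and RRAS2 higher, against 21.4% of all genes. Values did not overlap for the same 2 members, against 36.7% of all genes. After the GC and length correction 2 members were called, against 27.1% of all genes. In this comparison fold changes across all genes fell with GC content (Spearman -0.245), opposite in sign to the comparison without poly(dA:dT). The 2 comparisons use separate libraries. GC content also went with the rest, at Spearman 0.503 for poly(dA:dT) under siNC, -0.572 under siQ61K and -0.656 for the interaction.

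**Figure D4:**
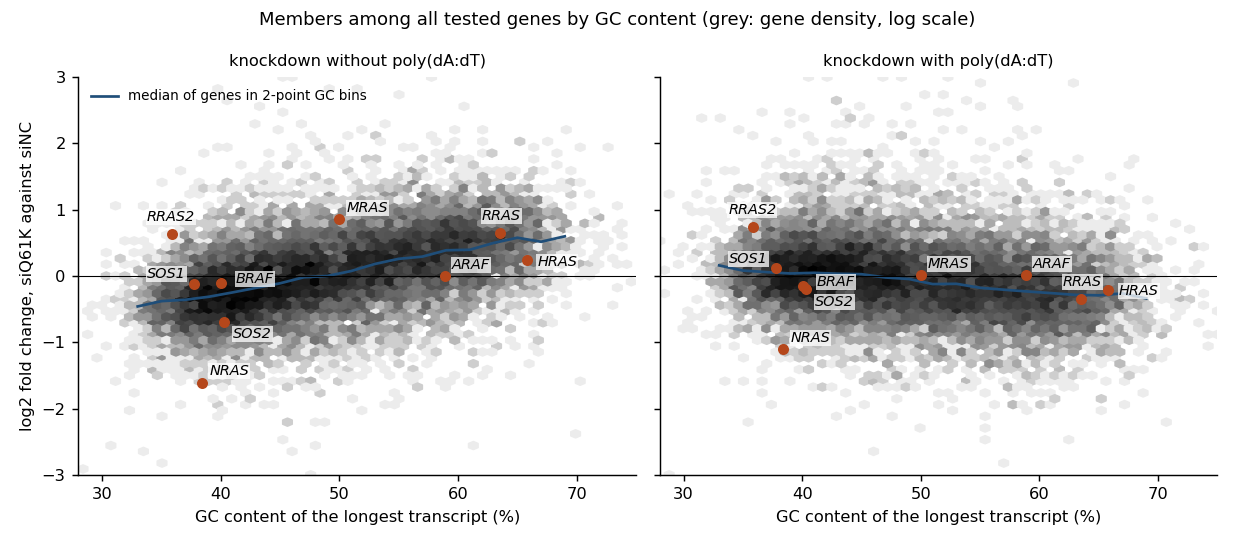
Log2 fold change of siQ61K against siNC by GC content of the longest transcript, without (left) and with (right) poly(dA:dT). Grey shading is the density of all tested genes with a known GC content on a log scale, the line is the median in bins 2 percentage points wide, and orange points are the members, with 29 (left) and 28 (right) of 14299 genes outside the axes. NRAS lies below and RRAS2 above the median line in both panels, whereas RRAS lies near the line in both.

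Under siNC, poly(dA:dT) was called for 0 of 9 members by limma, against 0.122% of all genes. At an unadjusted p under 0.05 there were 2 members, RRAS (0.28) and SOS2 (-0.45), and 1640 genes in all. Values did not overlap for 3 members, RRAS higher and BRAF and SOS2 lower, against 17.9% of all genes. After correcting for GC content and length 0 members were called, against 0.203% of all genes. NRAS, at -0.18 (SE 0.16, adjusted p = 0.655), overlapped between these groups.

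Under siQ61K, poly(dA:dT) was called for 1 of 9 members, RRAS, against 25.2% of all genes, and for the same member after the GC and length correction, against 8.76%. RRAS fell from 177.1, 159.1 and 151.2 TPM to 118.3, 88.7 and 90.4 TPM, with no overlap. The log2 difference between groups was -0.72 (SE 0.13, adjusted p = 0.00486), beside a median of -0.56 for genes of like GC content, and -0.34 after the correction (adjusted p = 0.0164). With replicate 3 of siQ61K DMSO and replicate 2 of siQ61K poly(dA:dT) both left out it was -0.69 and not called (adjusted p = 0.0622). This comparison shares the siQ61K DMSO libraries with the knockdown comparison in which RRAS rose. The median of all genes was -0.15 in this comparison, and -0.0082 with median-of-ratios scaling. The RRAS decrease was still called with that scaling and with quantile normalization. How much of it such a shift makes up was not tested. NRAS lay higher in all 3 siQ61K poly(dA:dT) libraries than in the siQ61K DMSO libraries. Its log2 fold change of 0.33 was not called (adjusted p = 0.155), but was 0.48 and called with median-of-ratios scaling (adjusted p = 0.0253) and with quantile normalization (adjusted p = 0.0258). Values did not overlap for these 2 members, against 39.3% of all genes. The sample titles name no delivery control for poly(dA:dT), so its delivery cannot be told apart from the agent.

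The interaction term, in which the siNC response to poly(dA:dT) is subtracted from the siQ61K response, was called for 1 of 9 members, against 18.1% of all genes. RRAS responded by 0.28 under siNC and by -0.72 under siQ61K, a difference of -0.995 (SE 0.18, adjusted p = 0.00853). Genes of like GC content had a median of -0.79 in the same contrast. After the GC and length correction the RRAS difference was -0.36 and not called (adjusted p = 0.0761), and no member was called, against 2.08% of all genes. HRAS (-0.45, adjusted p = 0.111) was called only with siQ61K poly(dA:dT) replicate 1 left out (-0.55, adjusted p = 0.0387), and was 0.26 and not called after the correction.

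Among the 10093 other genes with a mean of at least 5 TPM, those with a pattern most like NRAS over the 12 libraries were RAD21, ASPH, CKAP2, THAP12 and DEPDC1. RAD21 is a cohesin subunit and CKAP2 binds the mitotic spindle. Their Pearson r with NRAS in log2(TPM + 1) was 0.988 to 0.992, and 0.963 to 0.993 after the GC and length correction. The 12 points share the 4 groups, and all 5 genes have a GC content of 34.7% to 40.7%, near that of NRAS. The genes most like SOS1 were RBM27, BTAF1, NUP153, FGD5-AS1 and PHKB, at 0.956 to 0.967, and 0.671 to 0.822 after the correction.

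The wider pathway was read from 7 lists with 79 genes, of which 65 were tested. Without poly(dA:dT) knockdown was called higher for 7 and lower for 14, with a median log2 fold change of -0.086, beside 16.6% higher, 14.8% lower and a median of 0.015 over all genes. In the other treatment 3 were higher and 11 lower, with a median of -0.14, beside 8.71% higher, 12.6% lower and a median of -0.066 over all genes.

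**Figure D5:**
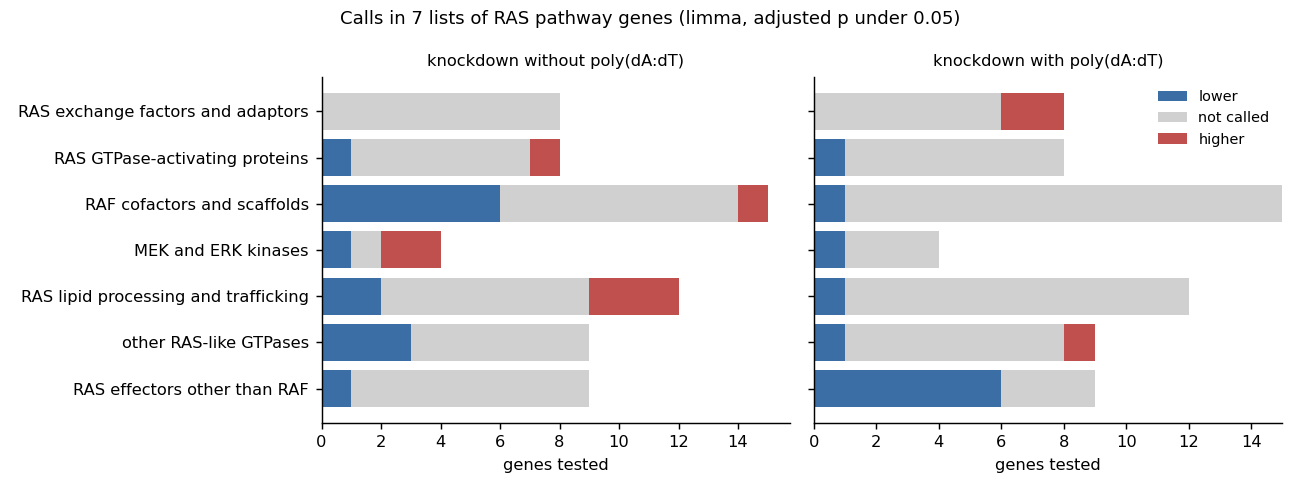
Numbers of tested genes called lower, not called and called higher on knockdown in 7 lists of RAS pathway genes, without (left) and with (right) poly(dA:dT), by limma at an adjusted p under 0.05. RAF cofactors have 6 of 15 lower without poly(dA:dT), and RAS effectors other than RAF have 6 of 9 lower with it. Over all genes tested, 14.8% were lower without poly(dA:dT) and 12.6% with it.

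Upstream of RAS, no exchange factor or adaptor was called without poly(dA:dT) (0 of 8, against 31.5% of all genes). With it, 2 of 8 rose, against 8.71% of all genes, both exchange factors at low abundance. RASGRP3 went from a mean of 0.321 to 3.19 TPM (log2 fold change 1.70, adjusted p = 0.00326) and RASGRF1 from 0.768 to 2.89 TPM (1.12, adjusted p = 0.0179). Among 8 GTPase-activating proteins, which switch RAS off, 1 was called higher and 1 lower without poly(dA:dT), against 16.6% and 14.8% of all genes. Calls after the correction were 2 higher and 2 lower, against 27.6% of all genes called in either direction. RASA2 was the gene called lower without poly(dA:dT), from 14.7 to 7.30 TPM (-0.92, adjusted p = 0.00367). DAB2IP fell with poly(dA:dT) (-0.69, adjusted p = 0.0169), with 7 of 8 not called. Corrected values of RASA2 were -0.57 without poly(dA:dT) and -0.37 with it, and those of DAB2IP -0.35 and -0.38, all called (adjusted p = 0.00149, 0.0166, 0.0274 and 0.02).

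RAF cofactors and scaffolds were lower in 6 of 15 and higher in 1 without poly(dA:dT), and lower in 1 of 15 with it. Shares over all genes were 14.8% lower and 16.6% higher without poly(dA:dT), and 12.6% lower with it. The chaperone HSP90AA1 fell from 1262 to 684.3 TPM without poly(dA:dT) (-0.88, adjusted p = 8.62e-05) and by 0.38 on the log2 scale with it (adjusted p = 0.0205). Its kinase-specific partner CDC37 rose without poly(dA:dT) (0.88, adjusted p = 0.00441), with a corrected value of 0.55 (adjusted p = 0.0151). With poly(dA:dT) CDC37 was -0.44 and not called (adjusted p = 0.119). The CDC37 interaction of -1.32 was called (adjusted p = 0.0114), but not after the correction (-0.79, adjusted p = 0.0664). CDC37 was not alone, as 6 of the 65 list genes were called higher and 10 lower in the interaction. That compares with 18.1% of all genes called in either direction. After the correction 1 list gene was higher and 0 lower, against 2.08% of all genes. The phosphatase subunit PPP1CC (-0.65) and the 14-3-3 gene YWHAE (-0.61) fell without poly(dA:dT). After the GC and length correction 5 were lower and 1 higher without poly(dA:dT), against 27.6% of all genes called in either direction.

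MEK and ERK genes were split in direction in DMSO. MAP2K1, which encodes MEK1, fell from 98.4 to 69.0 TPM (-0.51, adjusted p = 0.00356), while MAP2K2, which encodes MEK2, rose from 186.1 to 362.5 TPM (0.96, adjusted p = 0.000123). The corrected MAP2K2 value was 0.53 (adjusted p = 0.000244). MAPK3, which encodes ERK1, rose (0.55, adjusted p = 0.0278), but not after the correction (0.13, adjusted p = 0.467). When poly(dA:dT) was present MAP2K1 fell from 99.9 to 68.1 TPM (-0.55, adjusted p = 0.00297) and the other 3 were not called on the deposited values. MAP2K2 was then 0.25 (adjusted p = 0.16), but was called higher after the correction (0.50, adjusted p = 0.000366).

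RAS effectors other than RAF fell in 6 of 9 with poly(dA:dT) and in 1 of 9 without it. Of all genes, 12.6% and 14.8% were called lower in these comparisons. Lower calls after the GC and length correction were 4 of 9 in each treatment. Of all genes, 27.1% with poly(dA:dT) and 27.6% without it were then called in either direction. RIN1, a RAS-binding exchange factor for RAB5, went from 31.8 to 13.9 TPM with poly(dA:dT) (-1.16, adjusted p = 0.000301). AFDN, an adaptor at cell junctions (-0.76), RASSF5 (-0.70) and RALGDS, an exchange factor for RAL (-0.69), fell as well, RALGDS not after the correction (adjusted p = 0.0813). RASSF5 also fell without poly(dA:dT) (-0.83, adjusted p = 0.0082). RIN1 was called without poly(dA:dT) only after the correction (-0.52, adjusted p = 0.000802).

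Among 12 genes of RAS lipid processing and trafficking, 3 rose and 2 fell without poly(dA:dT), and 1 fell with it. Of all genes, 16.6% rose and 14.8% fell without poly(dA:dT), and 12.6% fell with it. ABHD17C, a depalmitoylase, fell from 39.7 to 20.1 TPM without poly(dA:dT) (-0.95, adjusted p = 0.000176) and from 38.3 to 20.9 TPM with it (-0.84, adjusted p = 0.000446). LYPLA2 (0.78), ABHD17A (0.77) and the palmitoyltransferase gene ZDHHC9 (0.55) rose without poly(dA:dT), ABHD17A not after the correction (0.20, adjusted p = 0.219). LYPLA2 was 0.38 after the correction (adjusted p = 0.00195), and was also called with poly(dA:dT) then (0.21, adjusted p = 0.0412). The other that fell was LYPLA1 (-0.54), also a depalmitoylase, and not after the correction (adjusted p = 0.168). Of 9 other RAS-like GTPases, 3 fell without poly(dA:dT), RALB (-0.77), RAP2C (-0.59) and RHEB (-0.47), against 14.8% of all genes. After the correction RAP2C was -0.36 (adjusted p = 0.0334), and RALB was called with poly(dA:dT) as well (-0.22, adjusted p = 0.0413). With poly(dA:dT) RAP1A rose (0.43, adjusted p = 0.012) and RAP2B fell by 0.35 on the log2 scale (adjusted p = 0.0315), RAP2B not after the correction (adjusted p = 0.0534).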

How the data were processed

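RNA-seq was measured in 12 HT1080 libraries, grouped by their titles. Column names of the series table were matched to titles by reading NC as siNC, SI as the only other siRNA and PD as the only added agent. The authors deposited TPM per gene symbol. Salmon 0.8.0 and hg19 are named in the submitters' processing notes, and the annotation is not given in the sources used here. Symbols shared by several entries (984 entries) were left out.

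The 14722 genes that reached 1 TPM in 3 or more libraries were analysed as log2(TPM + 1), which understates changes of low genes. All groups entered 1 limma 3.58.1 model (R 4.3.3) with a variance trend, and p-values were Benjamini-Hochberg adjusted over all genes at 0.05. Standard errors are those of the model. Within-library ratios used no pseudocount and exact permutation tests, which for 3 libraries against 3 cannot go below p = 0.1. The GC and length correction used lowess (span 0.3) on the longest GENCODE release 29 transcript, known for 14299 genes (97.13%), so after it the share called refers to those. The fit was tested on simulated data.

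Members and lists were chosen with earlier results of these data known. Of each list, up to 4 called genes per comparison with the largest change and at least 5 TPM in the higher group were named. RASGRP3 and RASGRF1, under 5 TPM, were named after their values were seen, as the only genes of their list called on knockdown, as was LYPLA1, ranked after 4 others. Other pseudocounts, filters, scalings, designs and left-out libraries were tried as alternatives. The genes most like NRAS and SOS1 were the 5 with the highest Pearson r. Some sequences and 1 gene of the lists are not reported here.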

Additional observations from a re-analysis of the deposited data

Results flagged for a closer look

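The interaction test was called for RRAS, whose change with poly(dA:dT) under siQ61K was apart from that under siNC, with a log2 difference of -0.995 (limma, adjusted p = 0.00853). It lay higher in all 3 siNC poly(dA:dT) libraries than in siNC DMSO and lower in all 3 siQ61K poly(dA:dT) libraries than in siQ61K DMSO. The call held whichever library was left out but not after the GC and length correction.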

How the results depend on the processing

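The 8 called results of members kept their direction under the alternatives run, and 179 of 183 recomputed values kept the call. The 4 lost calls are given beside SOS2 and RRAS. Numbers of genes called and of members called moved as follows. Poly(dA:dT) under siNC called 18 genes, and 29 after the GC and length correction. Poly(dA:dT) under siQ61K called 3712, against 2328 with no filter, 1252 after the correction, 2207 in a fit to only the groups compared and 144 with replicate 3 of siQ61K DMSO and replicate 2 of siQ61K poly(dA:dT) both left out. It called 2 members with each of median-of-ratios scaling and quantile normalization, and 0 without those 2 libraries. The interaction called 2662, against 1026 with no filter, 297 after the correction and 494 without those libraries. It called 2 members with either scaling and 0 after the correction. Leaving out each library gave 3040 to 4983 genes for knockdown without poly(dA:dT), 7 to 36 for poly(dA:dT) under siNC, 1633 to 4622 under siQ61K and 976 to 3877 for the interaction, with 1 to 2 members in the last. Moves of over 1.5 times came without siNC DMSO replicate 1 for knockdown, without any siNC DMSO library, siNC poly(dA:dT) replicate 1 or siQ61K poly(dA:dT) replicate 1 for poly(dA:dT) under siNC, and without replicates 1 or 3 of siQ61K DMSO or 2 or 3 of siQ61K poly(dA:dT) under siQ61K. For the interaction they came without replicates 1 or 2 of either siNC group, replicate 1 of siQ61K DMSO, or replicates 2 or 3 of siQ61K poly(dA:dT), and for its members without siNC DMSO replicate 3 or siQ61K poly(dA:dT) replicate 1. The cause was not tested.

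Signs of uncalled values turned as follows. After the GC and length correction, knockdown without poly(dA:dT) gave HRAS -0.23, ARAF -0.35, BRAF 0.13 and SOS1 0.18, and knockdown with it gave HRAS 0.022. Under siNC poly(dA:dT) gave NRAS 0.059, HRAS -0.040 and BRAF 0.039, and under siQ61K HRAS 0.22, RRAS2 -0.24 and ARAF 0.35. The interaction gave HRAS 0.26, RRAS2 -0.44 and SOS1 -0.042, and the BRAF to ARAF ratio was 0.064. With median-of-ratios scaling ARAF was -0.017 on knockdown without poly(dA:dT) and 0.090 for poly(dA:dT) under siQ61K, where quantile normalization gave 0.070. BRAF was 0.039 and 0.038 in the interaction. A pseudocount of 5 gave MRAS -0.17 on knockdown with poly(dA:dT). With both of those libraries left out, ARAF was -0.056 and -0.068 on knockdown without and with poly(dA:dT) and -0.013 in the interaction, BRAF 0.035 and SOS1 0.088 for poly(dA:dT) under siQ61K, and BRAF 0.26 in the interaction. Leaving out each library gave, on knockdown without poly(dA:dT), -0.056 to 0.051 for ARAF, -0.36 to 0.050 for SOS1 and -0.31 to 0.020 for BRAF. With poly(dA:dT) it gave -0.74 to 1.16 for MRAS, -0.068 to 0.12 for ARAF and -0.022 to 0.28 for SOS1. Under siNC poly(dA:dT) ranged from -0.12 to 0.098 for RRAS2 and -0.20 to 1.70 for MRAS. Under siQ61K it ranged from -0.40 to 0.39 for MRAS, -0.083 to 0.19 for SOS2, -0.36 to 0.046 for SOS1 and -0.15 to 0.041 for ARAF. The interaction ranged from -0.17 to 0.16 for BRAF, -0.070 to 0.12 for ARAF and -1.61 to 0.30 for MRAS.

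Same-numbered libraries of different groups correlated at -0.26 to 0.23 in their deviations from the group means, over 0.1 in 3 of 18 pairs. Libraries with different numbers reached 0.28. With 3 libraries a group, these correlations cannot show whether the numbers pair the libraries. With a replicate block 4436, 2957, 22, 3433 and 2243 genes were called in the 5 comparisons, and 4, 2, 0, 1 and 1 members. Without counts, low members such as MRAS, SOS1 and SOS2 have a precision that the spread of 3 libraries alone describes.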
